A study of Mus musculus with 2 samples.

Results

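The genes described here are long non-coding RNA (lncRNA) genes whose 5′ end stood apart from every protein-coding 5′ end, though it could lie inside a protein-coding gene. They were all lncRNA genes of the RefSeq annotation of GRCm38.p6 on numbered autosomes with the 5′ end over 1 kb from every protein-coding 5′ end, other than the Snhg genes and Gas5. The rule gave 8440 starts out of 30063 lncRNA and protein-coding starts with a known 5′ end. The rule itself used no measured value, but it was chosen with earlier results of these data known. CHD2 had been precipitated from chromatin of ES-E14, an embryonic stem cell line from a male mouse embryo of strain 129/Ola, in 1 group of 2 biological replicates. The labels name no treatment, genotype change or second condition, so no condition was compared. Both replicates carry the same biosample record, so the spread between them may be technical. Each start was scored by the signal of the strongest peak whose summit lay within 1 kb of it. The signal was set by the authors' peak calling, has no stated normalization, and its size was compared only within a list. Only peak lists were used. Read depth is therefore unknown, and the identity of the cells was not checked against expression markers.

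CHD2 is a chromodomain helicase that uses ATP to move nucleosomes, and it is known for binding near active promoters. A lncRNA is a long transcript with no coding sequence, usually made by RNA polymerase II from a promoter built much like that of a coding gene. Many lncRNA genes begin back to back with a coding gene and share its promoter region, and those starts were set aside here as a separate reference. Some lncRNAs act on the chromatin around them, as Kcnq1ot1 does in an imprinted cluster, and others act away from their gene or serve as the precursor of microRNAs. Chaserr, which lies upstream of Chd2 itself, is known in mice to hold Chd2 expression down in cis.

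CHD2 peaks were sparse at these starts, but those that lay on the promoter itself mostly lay close to a CCAAT box. Of the 8440 lncRNA starts, 189 (2.24%) had a peak of the optimal list, the authors' list derived from both replicates. Among protein-coding starts the share was 14.6% (2975 of 20359). Where the summit fell inside the 300-base promoter window, the window held CCAAT, the letters recognised by the trimeric factor NF-Y, at 48 of 66 lncRNA starts (72.7%). The strongest peaks lay at little-studied genes such as B930059L03Rik and 5430416N02Rik, and also at Chaserr and Oip5os1.

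The promoters below are the 5 strongest, among those in RefSeq's promoter table, whose summit fell within the window of GRCm38.p6, which runs from 250 bases before to 50 bases after the start. They are shown because the summit can be read against the letters. Capitals mark exact letters found on either strand: CCAAT (the NF-Y box), GGGCGG (the GC box of the Sp family), CCGGAAG (a core bound by ETS factors), CACGTG (the E-box), TGACGTCA (the cyclic AMP response element) or TATAAA (the TATA box). A lower-case base belongs to none of these. 5430416N02Rik is at chr5:100429486-100429785, minus strand, with a signal of 232 and the summit 132 bp upstream of the start. Gm27011 is at chr8:121950596-121950895, minus strand, with a signal of 201 and the summit 29 bp downstream. Oip5os1 is at chr2:119594046-119594345, plus strand, with a signal of 131 and the summit 58 bp upstream. Gm17586 is at chr11:120633500-120633799, plus strand, with a signal of 127 and the summit 2 bp downstream. Gm39353 is at chr9:62649467-62649766, plus strand, with a signal of 120 and the summit 101 bp upstream.
5430416N02Rik: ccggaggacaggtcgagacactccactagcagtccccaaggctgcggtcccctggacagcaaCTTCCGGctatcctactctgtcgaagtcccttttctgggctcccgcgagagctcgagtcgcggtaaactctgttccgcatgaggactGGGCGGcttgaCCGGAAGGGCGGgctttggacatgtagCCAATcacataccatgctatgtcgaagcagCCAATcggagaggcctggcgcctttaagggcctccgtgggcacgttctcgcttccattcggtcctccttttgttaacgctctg
Gm27011: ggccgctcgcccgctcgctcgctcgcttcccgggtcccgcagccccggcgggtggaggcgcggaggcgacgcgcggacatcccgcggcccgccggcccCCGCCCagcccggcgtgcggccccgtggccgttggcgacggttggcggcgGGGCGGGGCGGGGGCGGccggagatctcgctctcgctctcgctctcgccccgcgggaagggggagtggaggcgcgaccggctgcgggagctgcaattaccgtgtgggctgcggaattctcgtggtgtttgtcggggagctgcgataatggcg
Oip5os1: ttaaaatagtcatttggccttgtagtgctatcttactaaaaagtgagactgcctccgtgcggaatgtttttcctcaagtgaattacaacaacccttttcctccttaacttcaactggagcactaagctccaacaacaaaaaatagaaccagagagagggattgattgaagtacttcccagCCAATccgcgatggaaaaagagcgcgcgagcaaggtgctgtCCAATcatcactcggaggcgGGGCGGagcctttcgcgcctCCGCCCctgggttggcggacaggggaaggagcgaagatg
Gm17586: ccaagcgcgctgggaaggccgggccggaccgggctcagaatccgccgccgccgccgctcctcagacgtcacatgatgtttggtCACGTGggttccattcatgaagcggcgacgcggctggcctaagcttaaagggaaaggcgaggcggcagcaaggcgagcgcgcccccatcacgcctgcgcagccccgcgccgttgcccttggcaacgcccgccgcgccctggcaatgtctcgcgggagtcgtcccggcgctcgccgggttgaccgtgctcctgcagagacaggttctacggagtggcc
Gm39353: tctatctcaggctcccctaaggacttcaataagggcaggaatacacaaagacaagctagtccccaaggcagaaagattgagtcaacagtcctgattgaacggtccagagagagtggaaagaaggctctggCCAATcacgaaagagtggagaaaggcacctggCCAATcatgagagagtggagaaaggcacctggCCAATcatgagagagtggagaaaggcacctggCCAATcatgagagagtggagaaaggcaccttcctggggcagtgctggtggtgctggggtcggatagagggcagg

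These 5 promoters differed widely in base composition. Gm27011 held 50 CpG dinucleotides, a G+C content of 77.3% and 4 matches to GGGCGG, but no CCAAT. Gm39353 held 3 CpG dinucleotides and 4 copies of CCAAT, at positions -120, -88, -56 and -24 from the start. Its summit lay between the first pair of these. 5430416N02Rik had CCAAT at -63 and -33, GGGCGG at -101 and -84, and CCGGAAG at -188 and -90. The CCGGAAG match at -90 shares bases with the GGGCGG match that follows it. Oip5os1 had CCAAT at -70 and -29 on both sides of its summit at -58. Gm17586 held only CACGTG, at -167, and none of the other letters searched.

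Kcnq1ot1 and Meg3, both imprinted, are shown as an occupied and an unoccupied start; this pair was chosen after the values were seen. Kcnq1ot1 is at chr7:143296498-143296797, minus strand, with a signal of 68.2 and the summit 140 bp upstream of the start. Meg3 is at chr12:109540746-109541045, plus strand, and had no peak in the optimal list, the pooled list or either replicate's own list. Capitals mark the same letters as above.
Kcnq1ot1: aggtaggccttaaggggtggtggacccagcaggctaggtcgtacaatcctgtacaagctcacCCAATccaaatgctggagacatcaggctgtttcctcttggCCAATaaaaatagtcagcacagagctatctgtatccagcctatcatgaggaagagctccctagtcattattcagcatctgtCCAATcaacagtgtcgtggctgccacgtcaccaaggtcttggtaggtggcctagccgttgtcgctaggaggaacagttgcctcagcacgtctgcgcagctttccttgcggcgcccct
Meg3: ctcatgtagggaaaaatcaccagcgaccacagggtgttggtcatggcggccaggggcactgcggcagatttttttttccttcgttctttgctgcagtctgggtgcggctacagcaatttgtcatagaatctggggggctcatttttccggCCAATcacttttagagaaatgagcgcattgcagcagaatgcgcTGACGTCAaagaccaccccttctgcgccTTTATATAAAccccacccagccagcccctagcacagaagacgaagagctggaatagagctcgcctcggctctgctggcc

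The Kcnq1ot1 promoter carried CCAAT at -188, -148 and -67, and the summit lay beside the match at -148. The Meg3 promoter carried CCAAT at -100 as well, with TGACGTCA at -57 and a TATAAA match on each strand near -25. CCAAT letters were thus present with and without a peak. A match describes the letters only.

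The optimal peaks covered 2.24% of the lncRNA starts (95% exact Clopper-Pearson interval 1.93 to 2.58, 189 of 8440). They covered 14.6% of the protein-coding starts (14.1 to 15.1) and 11.4% of all 30063 starts together. All such intervals cover counting of genes only. In the conservative list, the authors' other list from the same procedure, 178 lncRNA starts (2.11%) and 14.1% of protein-coding starts had a peak. Of these 178 lncRNA starts, 145 were among the 189, so the lists did not hold all the same starts. The lncRNA starts thus stood well under the coding starts in both lists. Leaving out replicate 2 or replicate 1, and using as many of the other replicate's own strongest peaks as the optimal list holds, gave 184 and 198 lncRNA starts.

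The lncRNA starts within 1 kb of a protein-coding 5′ end, which are not among the 8440, had peaks more often than coding starts. Of these, 252 of 1246 had an optimal peak (20.2%, 18 to 22.6). A summit within 1 kb of such a start can also lie within 1 kb of the coding start, so this share cannot be credited to the lncRNA start alone. The gap at the 8440 separate lncRNA starts was there in every list. In the 20000 strongest peaks of the pooled relaxed list, 425 lncRNA starts had a peak (5.04%), against 25.1% of protein-coding starts. In the 20000 strongest of replicate 1's own list, 380 lncRNA starts (4.50%) and 22.0% of protein-coding starts had one. In the 20000 strongest of replicate 2's own list the counts were 445 lncRNA starts (5.27%) and 24.4% of protein-coding starts. Any of these 3 lists or the optimal list reached 651 lncRNA starts.

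**Figure D1:**
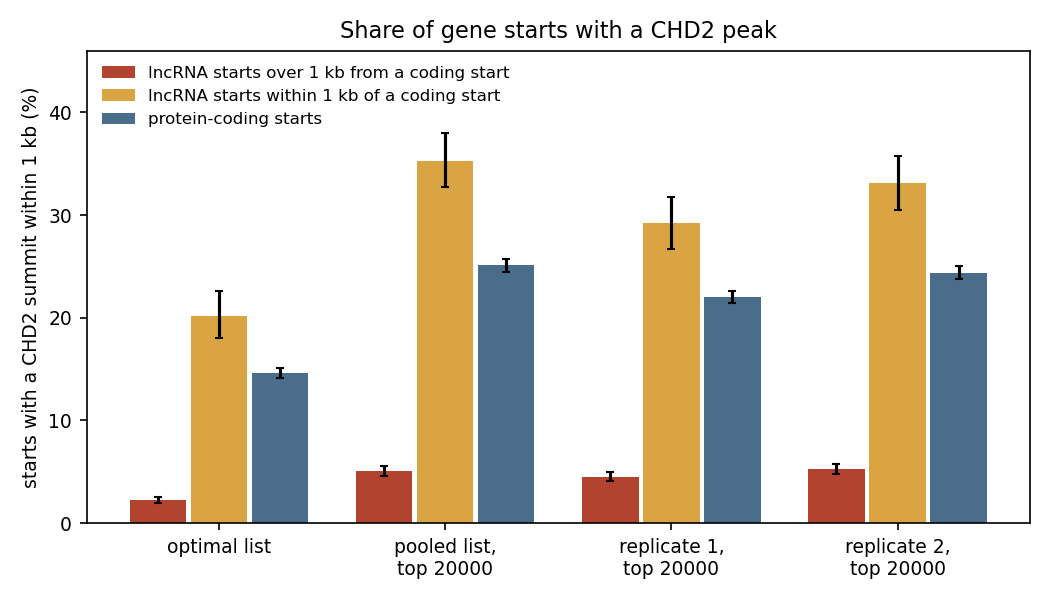
Percent of gene starts with a CHD2 summit within 1 kb in each of 4 peak lists, for lncRNA starts over 1 kb from a coding start (n = 8440), lncRNA starts within 1 kb of one (n = 1246) and protein-coding starts (n = 20359). Bars are shares and error bars are exact 95% intervals; the separate lncRNA starts stay between 2.24% and 5.27%, under both other groups in every list.

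Seen from the peaks, lncRNA starts took a small part of CHD2 binding. Of the 8134 optimal peaks on numbered autosomes, 213 (2.62%) had the summit within 1 kb of a lncRNA start of the set. Of the 3591 peaks over 10 kb from any protein-coding 5′ end, 143 (3.98%) did. The strongest of those distal peaks were more often at a lncRNA start, with 10 of the 100 strongest (interval 4.9% to 17.6%) and 133 of the other 3491 (3.81%, 3.2 to 4.5).

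The peaks at lncRNA starts were also weaker. Their median optimal signal was 30.8, with quartiles of 24.9 and 48.3 and a range of 11.1 to 427. The median was 44.7 over the 2975 occupied coding starts, with quartiles of 28.0 and 88.9. Among the 829 strongest optimal peaks, were the peaks of 20 lncRNA starts (10.6% of those occupied) and of 22.9% of the occupied coding starts. A single lncRNA start, that of B930059L03Rik, was served by one of the 100 strongest peaks.

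B930059L03Rik had a signal of 427 in the optimal list, and 220 and 212 in the own lists of replicates 1 and 2. Its peak (chr12:110591476-110591813) ranked 7 of 8282 in the optimal list, 10 in replicate 1 and 4 in replicate 2. The gene is 1306 bp long, on the plus strand, and the summit lay 270 bp inside it. The nearest coding start, 10021 bp away, was that of Dync1h1, the heavy chain of cytoplasmic dynein. Both replicates thus placed this lncRNA start among their strongest 10 peaks.

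5430416N02Rik, whose promoter opens the set above, had 232 in the optimal list, 138 in replicate 1 and 92.7 in replicate 2. Sec31a, a coat protein of vesicles leaving the endoplasmic reticulum, had the nearest coding start at 13262 bp. Gm27011, with 201 in the optimal list, 129 in replicate 1 and 77.8 in replicate 2, begins inside Banp on the opposite strand, 2673 bp from the Banp 5′ end. Its summit thus lay within a coding gene but well away from that gene's start.

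Chaserr had 149 in the optimal list, 85.4 in replicate 1 and 59.3 in replicate 2. Its peak (chr7:73558603-73558832) had the summit 319 bp upstream of the Chaserr start. The Chd2 gene, which encodes the precipitated protein, had the nearest coding 5′ end, 16649 bp from the Chaserr start. Rab10os had 170 in the optimal list, 91.0 in replicate 1 and 77.6 in replicate 2, and its start lay 74178 bp from the nearest coding 5′ end, that of Rab10. Oip5os1, known as Cyrano, a conserved lncRNA that drives the decay of miR-7, had 131 in the optimal list, 68.1 in replicate 1 and 60.5 in replicate 2. These 3 starts were far from coding starts and were high in both replicates.

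The next strongest starts included some that lay close to another start. 4930513N10Rik had 165 in the optimal list, 74.0 in replicate 1 and 92.3 in replicate 2, but its summit lay 751 bp inside the lncRNA and 532 bp from the 5′ end of Cnot1, a scaffold of the deadenylase complex. Gm31490 had 147 in the optimal list, 86.6 in replicate 1 and 68.5 in replicate 2, with the summit 154 bp from the 5′ end of Lyrm7. For these and 5 weaker members the summit was within 1 kb of a coding 5′ end and nearer to it than to the lncRNA start. Such a peak cannot be assigned to one of the pair of starts.

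Of the 189 occupied starts, 26 lay within 1 kb of an internal start that RefSeq lists for a coding gene. Gm17586, which had 127 in the optimal list, 74.0 in replicate 1 and 51.7 in replicate 2, was 203 bp from one. Gm10910, 6430590A07Rik and 1700003G18Rik, also among the 20 strongest, were 380, 155 and 231 bp from one. Gm31490 is among the 26 as well. Setting all starts near a listed coding start aside left 163 of 8224 (1.98%), against 189 of 8440 (2.24%) in the whole set. The starts set aside were thus occupied more often than the rest.

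The rest of the 20 strongest had optimal signals of 97.9 to 124. B430319G15Rik had 124 in the optimal list, 65.1 in replicate 1 and 55.6 in replicate 2, and Gm39353 had 120, 68.3 and 53.2 in the same lists. The last 9 ranged from 42.5 to 64.3 in replicate 1 and from 33.0 to 71.7 in replicate 2. Gm38896 was the lowest of these in replicate 1, at 42.5, and the highest in replicate 2, at 71.7. The last of the 20, 1700003G18Rik, was near the top of these in replicate 1, at 63.5, and the lowest in replicate 2, at 33.0. Gm51930 and 4930469K13Rik, with 113 and 110, were with Rab10os the 3 strongest whose start lay over 50 kb from a coding 5′ end.

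**Figure D2:**
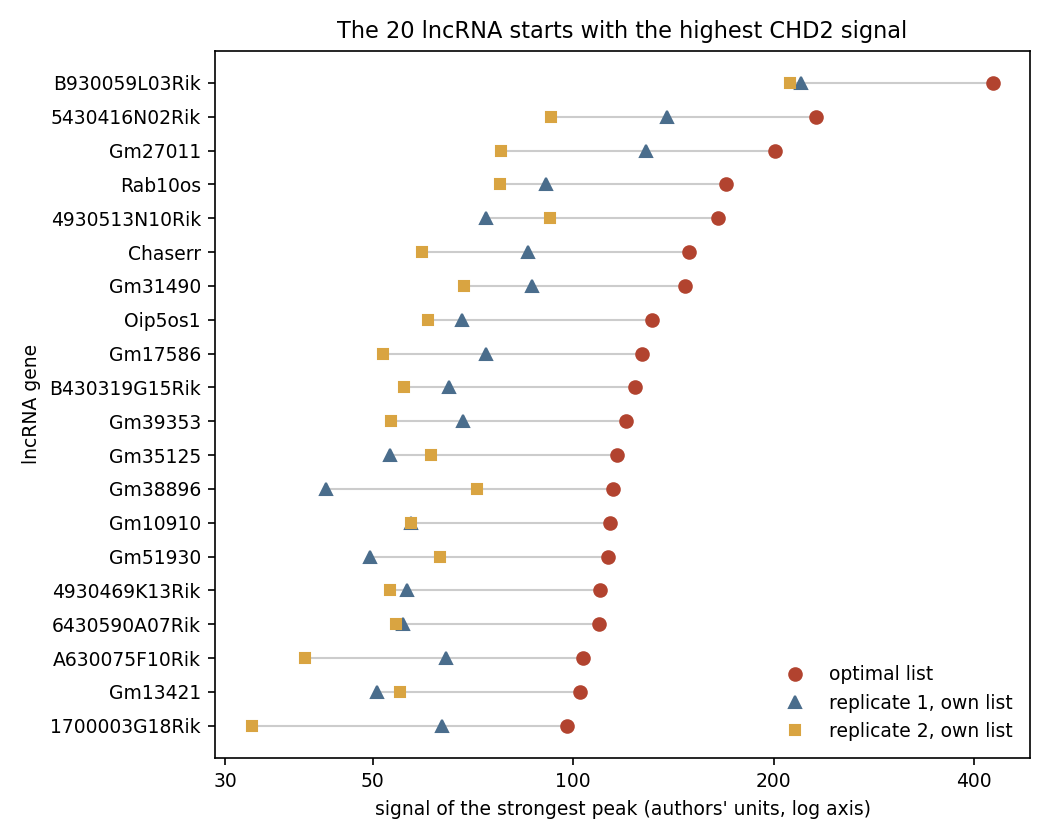
Signal of the strongest peak at each of the 20 lncRNA starts with the highest optimal signal, on a log axis, with 1 point for the optimal list and 1 for each replicate's own list. Optimal signals run from 427 at B930059L03Rik to 97.9 at 1700003G18Rik; the lists have separate scales, so the order of genes can be read but not the distance between the lists.

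Most of the occupied starts recurred in both replicates, though a smaller share than at coding starts. Because the optimal list was derived from these same replicates, part of this recurrence is built in. Of the 189, 149 (78.8%, 72.3 to 84.4) had a peak among the 20000 strongest of both replicates, against 89.0% of the occupied coding starts. Replicate 1 alone gave 14, replicate 2 alone 23, and neither gave 3. In the full relaxed lists of 300000 peaks each, 186 had a summit in both. Since those full lists reach very low signals, that count says little about binding. Of the 189, 145 (76.7%) also had a peak in the conservative list, against 85.0% of the occupied coding starts.

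The order of the starts was also less alike between the replicates than at coding starts. Over the 149 lncRNA starts with both values, Spearman's rho of the signals in replicates 1 and 2 was 0.622 and Pearson's r of their log2 values was 0.765. Over 2647 coding starts these were 0.788 and 0.845. The members differ from the coding starts in signal too, and the part of signal in this was not tested.

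**Figure D3:**
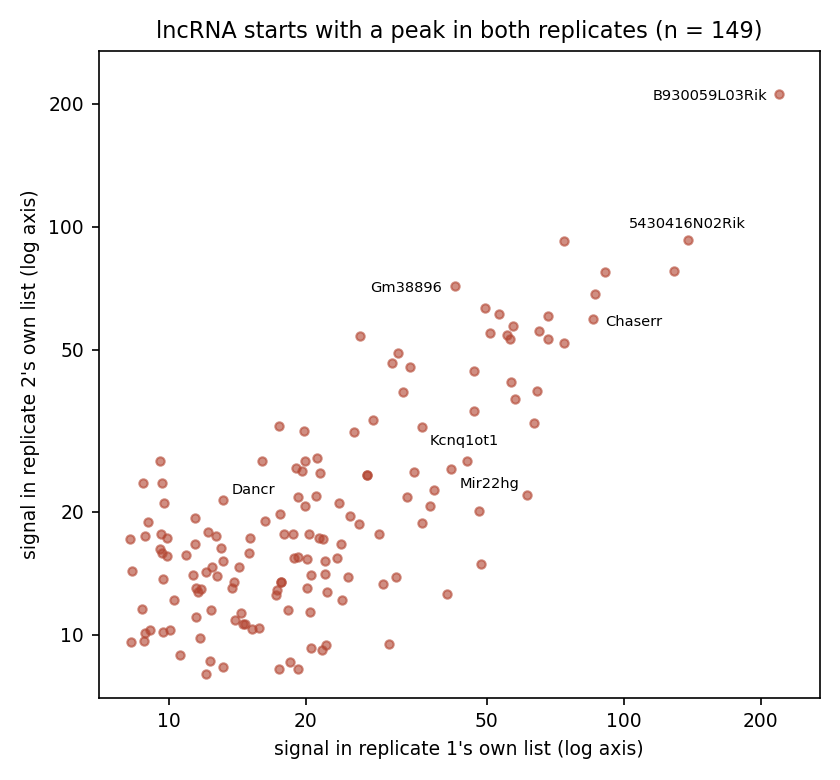
Signal in replicate 1's own list (x) against replicate 2's own list (y), both on log axes, for the 149 occupied lncRNA starts with a peak among the 20000 strongest of both. The lists have separate scales, so only the order within each can be read; B930059L03Rik is highest in both, at 220 and 212, and Dancr, at 13.2 and 21.3, is among the many lower points.

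The largest rank differences were at starts that 1 replicate hardly showed. Gm38733 had 26.6 in replicate 1 (rank 1892) and 2.84 in replicate 2's full list (rank 292516). Gm3716 had 4.05 in replicate 1's full list (rank 229262) and 22.7 in replicate 2 (rank 2464). Gm33006, Gm33388 and Gm16146 were likewise seen by replicate 2, with 18, 16.8 and 19.2, and had 4.05, 4.45 and 4.48 in replicate 1's full list. None of these 5 had a conservative peak. Their optimal signals, 18.6 to 31.8, thus rest on 1 replicate each.

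At the edge of the optimal list, the 3 weakest occupied starts were 4930401G09Rik with 11.1, Gm31805 with 13.0 and Gm20652 with 14.3. The first of these had its summit 261 bp from the start of Msi1, an RNA-binding protein of stem cells. In all, 57 lncRNA starts had a peak in the pooled list and in both replicates' own lists but no optimal peak. The like count at coding starts is not given here, so the 57 cannot be set against a background. By pooled signal, the strongest of these 57 were Zfp335os with 38.8, Gm52312 with 32.6 and Gm41256 with 31.1.

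Summits at lncRNA starts were spread more widely around the 5′ end than at coding starts. The median distance was 255 bp at the 189 lncRNA starts and 105 bp at the 2975 coding starts. Of the lncRNA summits, 25.9% (19.8 to 32.8) were within 100 bp of the 5′ end, against 48.7% of the coding summits. A further contrast was the tail, with 23.8% of the lncRNA summits and 11.7% of the coding summits 500 bp to 1 kb away. The fullest bin was the 100 bp just upstream of the start in both groups, with 19% of the lncRNA and 35.8% of the coding summits. The 5′ end is the outer end of the annotated gene, and how well it marks the start used in these cells was not tested.

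**Figure D4:**
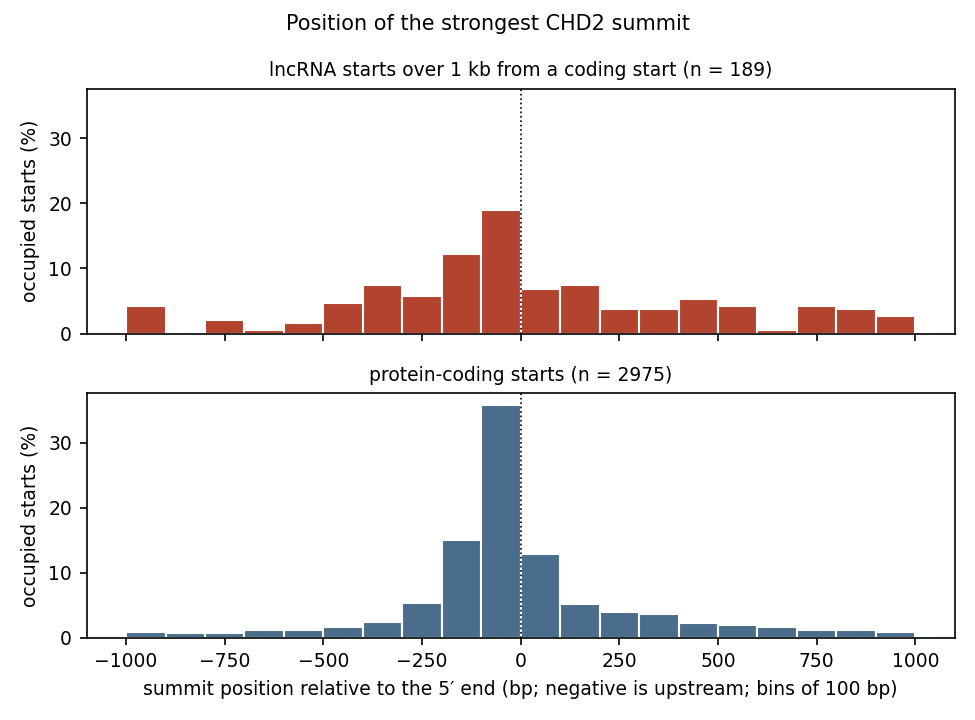
Percent of occupied starts by the position of the strongest optimal summit relative to the 5′ end, in bins of 100 bp, negative upstream. The upper panel holds 189 lncRNA starts and the lower panel 2975 protein-coding starts; both are highest in the bin just upstream of the start, at 19% and 35.8%, and the lncRNA starts have more in the outer bins.

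CpG content of the promoter went with occupancy. The observed over expected CpG ratio, which is near 1 in CpG islands and low in most of the genome, could be had for 7869 of the 8440 starts, 168 of them occupied. Its median was 0.466 at the occupied and 0.221 at the unoccupied lncRNA starts. At coding starts the medians were 0.818 where occupied and 0.497 where not. Median G+C content was 52.8% at occupied lncRNA promoters and 47.3% at the unoccupied ones.

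The share with a peak climbed with the ratio. Under a ratio of 0.25, 27 of 4397 lncRNA starts had an optimal peak (0.614%). From 0.25 to 0.5 it was 2.39%, and from 0.5 to 0.75 it was 5.13%. Over 0.75 it was 46 of 281 (16.4%, 12.2 to 21.2). CpG-poor promoters made up most of the lncRNA starts, whereas the class over 0.75 was the largest among coding starts.

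In the optimal list, lncRNA starts had fewer peaks than coding starts in each CpG class. The coding shares, measured over 16457 genes at the listed start nearest the outer end, were 1.15%, 6.28%, 21.3% and 28.5% from the lowest class to the highest. The exact intervals overlapped in the lowest class, at 0.405 to 0.892 for lncRNA and 0.859 to 1.51 for coding starts, and did not overlap in the classes above 0.25. In the replicates' own lists the lowest class went the other way, with 2.46% of lncRNA and 2.06% of coding starts in replicate 1, and 2.55% and 2.42% in replicate 2. The class over 0.75 kept the order, with 24.2% of lncRNA and 41.1% of coding starts in replicate 1, and 28.8% and 44.5% in replicate 2. Whether these genes are transcribed in the cells was not measured, and its part in the gap was not tested.

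**Figure D5:**
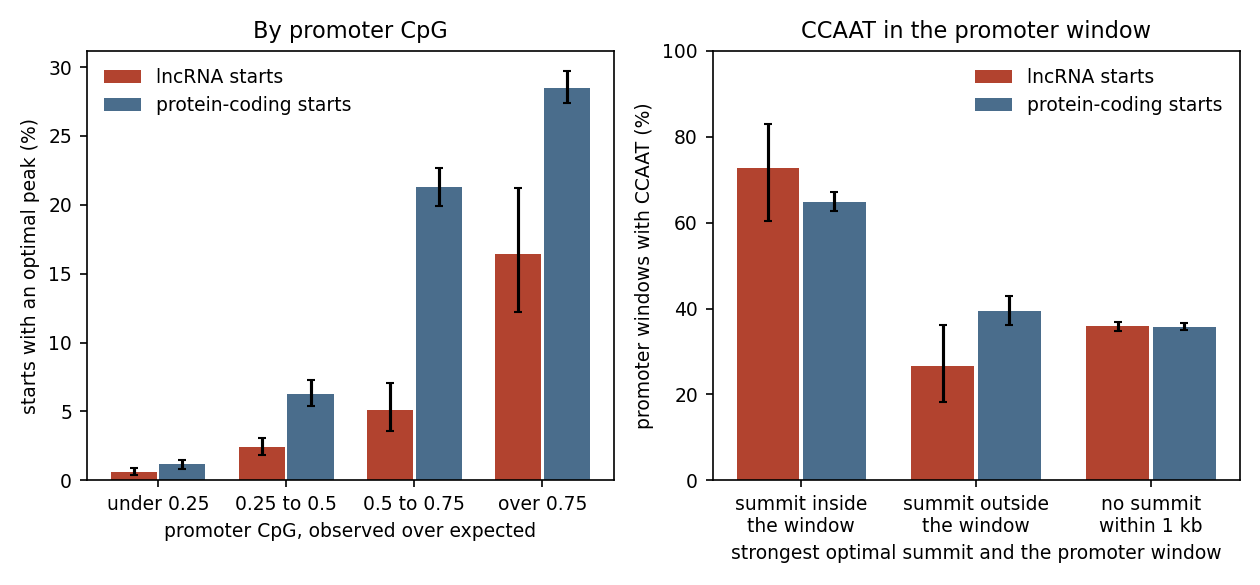
Left, percent of lncRNA and protein-coding starts with an optimal peak in 4 classes of promoter CpG ratio; right, percent of promoter windows that hold CCAAT on either strand, by where the strongest optimal summit lay. Error bars are exact 95% intervals; lncRNA shares climb from 0.614% to 16.4% with CpG and stay under the coding ones, and CCAAT is most frequent, at 72.7% and 64.9%, where the summit lies inside the window.

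Among the letters searched, CCAAT differed most between lncRNA windows with the summit inside and outside. This split by summit position was chosen after the data were seen. In the 66 lncRNA promoters whose optimal summit fell inside the window, 48 held CCAAT (72.7%, 60.4 to 83.0). In the 102 whose summit lay outside the window it was 27 (26.5%, 18.2 to 36.1), and in the 7701 with no optimal summit within 1 kb it was 35.9%. The share over all 32851 promoters of the RefSeq table was 37.4%. CCAAT was thus more frequent where the summit sat on the promoter than at the other occupied starts.

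The same was seen with each replicate's own summits. CCAAT was in 66 of 106 windows with a replicate 1 summit inside (62.3%) and in 30.5% of those with the summit outside. For replicate 2 it was in 73 of 130 windows (56.2%) and in 30.2%. The replicates share the cell line and the antibody, and their summits are not independent of the optimal list. Coding promoters showed a like share, 64.9% of 1774 windows with the summit inside and 39.4% of 843 with it outside. The intervals of the lncRNA and coding shares overlap where the summit was inside.

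The CCAAT letters lay close to the summit. In the 48 lncRNA windows with both, the nearest CCAAT was a median of 16 bp from the summit, with quartiles of 5 and 40 bp, and 41 of the 48 (85.4%) had one within 50 bp. In the 1152 coding windows the median was 15 bp and the share within 50 bp was 81.5%. For GGGCGG the median was 53 bp in 30 lncRNA windows and 54 bp in 1144 coding windows. The summit thus sat nearer to CCAAT than to GGGCGG, with close medians at lncRNA and coding starts.

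GGGCGG followed occupancy rather than the summit. It was in 45.5% of the lncRNA windows with the summit inside, in 39.2% of those with it outside and in 10.2% of those with no optimal summit within 1 kb. GGGCGG contains a CpG, and its share grew with CpG content. Among lncRNA promoters with a ratio over 0.75 it was in 76.1% of the 46 occupied and 54.5% of the 235 unoccupied. CCAAT, which has no CpG, was in 30 of the 60 occupied and 34.4% of the 2449 unoccupied promoters with a ratio of 0.25 to 0.5, but in 30.4% and 28.1% over 0.75, where the intervals overlap.

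The other letters were rarer. CCGGAAG was in 10.1% of the 168 occupied and 2.79% of the unoccupied lncRNA promoters, and in 8.86% of all promoters. CACGTG was in 9.52% of the occupied and 5.44% of the unoccupied. TGACGTCA was in 1.19% of the occupied and 0.779% of the unoccupied, too few to set apart. TATAAA went the other way, with 7.14% of the occupied and 16.9% of the unoccupied. These shares are not matched for CpG content. Within every CpG class the intervals of occupied and unoccupied lncRNA promoters overlap, both for CCGGAAG and for TATAAA.

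A further 3 consensus sequences, for NRF1, ZBTB33 and YY1, were rare at these lncRNA starts. The ZBTB33 consensus, a palindrome with CpG dinucleotides, was in none of the 7869 lncRNA promoters. It was in 118 of 2617 occupied coding promoters (4.51%) and in 1 of 13840 unoccupied ones. The NRF1 consensus was in none of the 168 occupied and in 10 of the 7701 unoccupied lncRNA promoters. The YY1 consensus was in 2 of the occupied and 2 of the unoccupied. No match says only that these exact letters were not in the window.

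Occupancy also varied with distance from the nearest protein-coding 5′ end. It was 7.40% at 1 to 2 kb (23 of 311) and 1.36% over 50 kb (57 of 4193). Between these it was 2.88% at 2 to 5 kb, 4.04% at 5 to 10 kb and 2.47% at 10 to 50 kb. The 1 to 2 kb class can include summits that lie within 1 kb of a coding start. Over 10 kb from any protein-coding 5′ end, 128 of 7069 (1.81%) still had a peak. Some of these lay near a listed internal coding start, as 1700052K11Rik did, 94 bp from one. The median distance was 20539 bp at occupied and 50190 bp at unoccupied starts.

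Orientation made little difference in the optimal list. Starts antisense inside a coding gene had a peak at 58 of 2252 (2.58%), those in sense inside one at 6 of 231 (2.60%), and those between genes at 125 of 5957 (2.10%). The intervals of these 3 classes overlap. In the replicates' own lists the antisense class was highest, with 5.33% antisense, 3.9% sense and 4.21% between genes in replicate 1, and 6.44%, 3.9% and 4.89% in the same order in replicate 2. The kind of annotation went with a wider gap. Genes with a curated RefSeq transcript had 100 of 2211 (4.52%, 3.69 to 5.47), and those with predicted transcripts only had 89 of 6229 (1.43%, 1.15 to 1.76). That grouping was chosen after the data were seen.

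The gap between curated and predicted genes was there in CpG-rich promoters too. With a CpG ratio over 0.75, 24.5% of the 147 curated and 7.46% of the 134 predicted genes had an optimal peak. Under 0.25 the shares were 0.714% and 0.585%, with overlapping intervals. Genes named only by a Gm or LOC number had a peak at 1.65% of 6896 starts, those with a Rik clone name at 4.56% of 1227, and those with other symbols at 7.69% of 169.

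Of the imprinted lncRNAs listed, 1 of 7 in the set had an optimal peak, against 2.24% of the whole set. This was Kcnq1ot1, the antisense transcript that silences neighbouring genes on the paternal chromosome, with 68.2 in the optimal list, 35.9 in replicate 1 and 32.4 in replicate 2. H19, Meg3, Mirg, Airn, Nctc1 and Ipw had no peak in any of the 4 lists. Lists as small as this limit any reading of the counts.

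Of 23 listed stem cell lncRNAs in the set, 2 had an optimal peak, Oip5os1 and Platr4, against 2.24% of the whole set. Platr4, one of the pluripotency-associated transcripts, had 26.8 in the optimal list and 20.3 in replicate 1, and none among the 20000 strongest of replicate 2. Platr26 had 22.9 in the pooled list, 10.4 in replicate 1 and 13.1 in replicate 2, and Platr22 had 12.0 in replicate 1 and 11.5 in replicate 2, both without an optimal peak. Replicate 1 gave a peak at 6 of the 23, against 4.50% of the whole set, and replicate 2 at 9, against 5.27%. Tunar, Miat, Sox2ot and Rmst were among those with no peak in any of the 4 lists.

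Of 7 nuclear body and abundant lncRNAs in the set, Chaserr and Dancr had an optimal peak, against 2.24% of the whole set. Dancr, a lncRNA that holds back differentiation and carries the small nucleolar RNA Snora26, had 33.8 in the optimal list, 13.2 in replicate 1 and 21.3 in replicate 2, with the summit 26 bp upstream. Malat1, Neat1, the scaffold of paraspeckles, Norad, which binds Pumilio proteins, Lncpint and Epb41l4aos had no peak in any of the 4 lists. Of 11 listed Hox and developmental lncRNAs in the set, none had an optimal peak, a count that the share of 2.24% over the whole set would also give. Either replicate taken alone gave a peak at 1 of the 11 listed, against 4.50% of the whole set in replicate 1 and 5.27% in replicate 2. This was Hotairm1, with 18.8 in the pooled list, 10.5 in replicate 1 and 8.12 in replicate 2.

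MicroRNA hosts had 4 occupied starts among the 43 members that hold a microRNA hairpin on their strand (9.30%, 2.59 to 22.1), against 185 of the other 8397 (2.20%). The counts are too small to place the share closely. Mir22hg, host of miR-22, had 62.6 in the optimal list, 41.7 in replicate 1 and 25.4 in replicate 2, with the summit at -952 bp and a weaker optimal peak of 47.7 within 500 bp. Gm51018, host of the miR-302 and miR-367 cluster that marks pluripotent cells, had 34.9 in the optimal list, 29.5 in replicate 2 and 5.01 in replicate 1's full list. Its peak thus rests on replicate 2. Gm13648, host of miR-200a, miR-200b and miR-429, had 29.3 in the optimal list, 9.60 in replicate 1 and 17.7 in replicate 2. Mirc35hg, host of the miR-182, miR-183 and miR-96 cluster of sensory organs, had 17.2 in the optimal list, 14.7 in replicate 1 and 10.6 in replicate 2. Except for Mir22hg, these genes were named after their values were seen. Of the 11 listed microRNA hosts, which share Mir22hg with these, the other 10 had no optimal peak.

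The mature strands below are those by which these clusters are best known, from RefSeq on GRCm38.p6, 5′ to 3′, with the seed (bases 2 to 8) in capitals. They show that the 4 occupied hosts carry different seeds and that seeds recur within a cluster. The hairpins lie on the plus strand of chr11 for miR-22 and of chr3 for the miR-302 cluster, and on the minus strand of chr4 for the miR-200 cluster and of chr6 for the miR-182 cluster.
miR-22-3p: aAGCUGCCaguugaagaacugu
miR-302b-3p: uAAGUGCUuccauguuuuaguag
miR-302d-3p: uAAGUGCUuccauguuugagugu
miR-302c-3p: aAGUGCUUccauguuucagugg
miR-367-3p: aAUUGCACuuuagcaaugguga
miR-200b-3p: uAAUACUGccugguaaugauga
miR-429-3p: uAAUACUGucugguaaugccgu
miR-200a-3p: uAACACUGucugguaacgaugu
miR-182-5p: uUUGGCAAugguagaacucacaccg
miR-96-5p: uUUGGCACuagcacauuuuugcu
miR-183-5p: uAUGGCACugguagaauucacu

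miR-302b-3p and miR-302d-3p share 1 seed, and the entry for miR-302c-3p starts 1 base later, which shifts its seed. miR-200b-3p and miR-429-3p share 1 seed and differ from miR-200a-3p at 1 base of it. All 4 hosts had their summit upstream of the gene, at -952 bp for Mir22hg, -276 bp for Gm51018, -139 bp for Gm13648 and -310 bp for Mirc35hg. Over all occupied lncRNA starts, 109 of 189 (57.7%) had the summit upstream, so 4 hosts do not set these genes apart.

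Some other small RNA genes lay within 1 kb of an occupied summit. C920006O11Rik, with 47.5 in the optimal list, had Rn7sk there, the gene of the 7SK RNA that restrains the elongation factor P-TEFb. The summit at Gm36220, with 54.6, was near Snord104, a small nucleolar RNA. In 4 cases a tRNA gene was within 1 kb, at 4833417C18Rik and Gm38959, which share a peak of 56.4, at 2310047D07Rik with 29.8 and at Gm40832 with 19.9. These genes were named after their values were seen. At such summits the lncRNA start was not the only annotated start.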

How the data were processed

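CHD2 ChIP-seq peaks of 2 biological replicates of ES-E14 cells were used, per the labels. The signal value of each peak is the authors', as deposited, with no stated normalization; its caller, aligner and filtering were not given in the sources used here. No control file was used here. Peaks and genes are on mm10 (GRCm38.p6, RefSeq). RefSeq's gene table gave no strand, so strand came from RefSeq's promoter table (8136 members) or GENCODE M1 by symbol (304). Without a strand, 2704 of 12408 lncRNA genes were left out, including all but 44 of 422 on chromosome 18. A further 1246 were within 1 kb of a coding 5′ end and 18 were Snhg genes or Gas5. Coding starts were scored alike. Promoter letters were matched exactly on both strands. Shares carry exact 95% Clopper-Pearson intervals; no significance test was run. Named genes were the 20 strongest, those at the list edges (3 each), the 5 largest rank differences, the 3 strongest over 50 kb away, and members of 5 lists, of which some are given only in counts and 1 is not reported here. Members and lists were chosen with earlier results of these data known. Scoring was tested on simulated data. Python 3.11.15, pandas 2.3.3 and SciPy 1.17.1 were used.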

Additional observations from a re-analysis of the deposited data

How the results depend on the processing

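The count of occupied lncRNA starts, 189 of 8440, stayed within 1.5 times of itself with the conservative list, with either replicate alone (184 without replicate 2, 198 without replicate 1), with a 500 bp window (149), with any part of the peak counted (207), and over 2 kb or 10 kb from a coding 5′ end. Further alternatives chosen after seeing the data, such as setting aside starts near a listed coding start (163 of 8224), gave 163 to 203. It moved to 425 with the pooled relaxed list, to 103 with the stronger 0.5 of the optimal peaks, to 305 with a 2.5 kb window, to 313 of 12261 when either end of every lncRNA gene counted, and to 54 of 2858 with the mm9 list and GENCODE M1. These alternatives use more or fewer peaks, a wider window or other genes by construction. The mm9 share, 1.89%, was under that of mm9 coding starts, 10.2%. Of the 32 occupied starts named by the rules given above, 6 had no peak within 500 bp and 9 none in the conservative list. Starts named only after their values were seen, such as Gm51018, are not among the 32. No paired analysis was possible because there is 1 group and no test. The depth of each library is unknown, so a start without a peak is one not detected here. Of the genes without a strand, 42 of 2682 had an optimal peak at either end.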
